A study of Mus musculus with 9 samples.

Results

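The respiratory chain of the mitochondrial inner membrane was read here as 98 of the 27719 genes in a colon expression table, chosen by symbol. These are the Ensembl mouse genes whose symbols name a subunit of complex I (mt-Nd, Ndufa, Ndufb, Ndufc, Ndufs and Ndufv genes), complex II (Sdha to Sdhd), complex III (mt-Cytb and Uqcr genes), complex IV (mt-Co genes and Cox4 to Cox8 genes) or complex V (mt-Atp and Atp5 genes). Mitochondrial DNA encodes 13 of them and nuclear DNA 85. Grouped by symbol alone, 44 were counted under complex I, 4 under complex II, 9 under complex III, 21 under complex IV and 20 under complex V. Whether each protein belongs to the complex of its symbol was not checked. The 98 entries carry 97 symbols, because Atp5o is listed under 2 identifiers, of which the second had no count. The symbol rule does not take in cytochrome c, cytochrome c1, the acyl carrier protein Ndufab1 or the assembly factors listed for this report, which are described apart.

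Complexes I to IV pass electrons from NADH and succinate to oxygen, complexes I, III and IV pump protons across the inner membrane, and complex V, the ATP synthase, uses the proton gradient to make ATP. Complexes I, III, IV and V are built from subunits of both genomes, whereas every subunit of complex II is nuclear. Colonocytes, the absorptive cells of the colon surface, take much of their energy from oxidation of butyrate in mitochondria.

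The samples were colon tissue from 9 C57BL/6J mice, with 3 mice and 1 library per mouse in each of 3 groups. Control mice drank distilled water. The DSS group drank 2.5% dextran sodium sulfate (DSS), which injures the colon epithelium, for 7 days. The DSS + EA group drank the same DSS and, after 5 days of modeling, received electroacupuncture (EA), in which needles at the ST36 point of either hind limb carried a weak current of 0.2 mA at 2 Hz. Each EA session lasted 30 minutes, once daily on 5 days. Age and sex are not given in the sources used here. Full-length cDNA was amplified by PCR and read on an Oxford Nanopore instrument. Counted reads per mouse were 3742630, 3229346 and 2627695 in control mice 1, 2 and 3, 3189244, 4235576 and 3230895 in DSS mice 1, 2 and 3, and 3259727, 2842304 and 3283282 in DSS + EA mice 1, 2 and 3. Levels are CPM, read counts divided by library size and put on a common scale, with library sizes adjusted by TMM, a scaling that sets aside the genes differing most between libraries. PCR copies were not told apart from separate molecules. Genes were tested with edgeR's quasi-likelihood test over 12566 genes, of which 92 are respiratory chain members (80 nuclear and 12 mitochondrially encoded). Here "lower" and "higher" calls mean a Benjamini-Hochberg adjusted p under 0.05. The members not tested for low counts were Cox4i2, Cox6a2, Cox7b2, Cox8c, mt-Nd4l and the second Atp5o entry, of which Cox7b2, Cox8c and that entry were at 0 in all 9 libraries.

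Some libraries stood apart in genes outside the respiratory chain, and they were singled out after the data were seen. DSS mouse 1 held fewer neutrophil transcripts than the other DSS mice, with a summed level over 10 neutrophil markers of 4544 CPM against 25164 and 27420 CPM. The 10 pancreatic markers summed to 37636 and 16352 CPM in DSS + EA mice 2 and 3, against 563 CPM in DSS + EA mouse 1 and between 42.4 and 262 CPM in the other 6 mice. Counts of called nuclear members and of most pathway lists are given with and without these libraries. In the fit without DSS mouse 1, 23.5% of all genes were called lower and 24.5% higher in DSS against control, and 22.9% higher and 22.6% lower in DSS + EA against DSS. In the fit without DSS + EA mice 2 and 3, 3.43% were called higher and 2.05% lower in DSS + EA against DSS. All 12 colonocyte markers were detected in every mouse. Car1, a carbonic anhydrase of surface colonocytes and the most abundant of them, was at 9712, 5243 and 21526 CPM in the control mice, 2969, 783 and 638 CPM in the DSS mice and 5496, 9989.9 and 2739 CPM in the DSS + EA mice.

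Many nuclear respiratory chain mRNAs were lower in the DSS mice than in the control mice. Of the 80 tested, 40 were called lower and 1 higher, while 39 were not called. Across all genes tested, 19.5% were called lower and 21.5% higher. The median log2 fold change over the 80 members was -0.68, beside 0.02 over all 12566 genes, and it was negative for 77 of the 80. In tissue RNA, fewer cells of a type and less RNA per cell cannot be told apart. The DSS and control mice did not overlap, with the DSS mice lower, for 52 of the 80 members, beside 25.9% of all genes tested. By complex, the lower calls were 17 of 37 for complex I, 3 of 4 for complex II, 2 of 8 for complex III, 9 of 14 for complex IV and 9 of 17 for complex V, of which that of complex III is near the share of all genes. The median log2 fold changes were -0.54, -0.83, -0.64, -0.85 and -0.70 for complexes I to V. With a log2 fold change beyond 1 required as well, 8 members were lower, beside 15.1% of all genes.

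In DSS + EA mice, nuclear members stood above the DSS mice and near the control mice. Against DSS, 26 of the 80 were called higher, beside 17.2% of all genes tested. edgeR and DESeq2 called 0 lower, and 0 were lower at an unadjusted P under 0.05 in either tool, beside 18.3% of all genes called lower. The median log2 fold change was 0.54, beside -0.02 over all genes, and it was positive for 76 of the 80. The groups did not overlap, with DSS + EA higher, for 37 members, beside 24.2% of all genes. Higher calls were 10 of 37 in complex I, 3 of 4 in complex II, 1 of 8 in complex III, 3 of 14 in complex IV and 9 of 17 in complex V, with median log2 fold changes of 0.43, 0.72, 0.59, 0.58 and 0.67. With a log2 fold change beyond 1 required as well, 3 members were higher, beside 1634 of the 12566 genes. Against the control mice, edgeR and DESeq2 called 0 nuclear members in either direction, beside 0.637% of all genes called lower and 3.00% called higher. At an unadjusted P under 0.05, each tool had 0 nuclear members lower and 1 higher. The median there was -0.11, and 27 of the 80 members were lower in every DSS + EA mouse than in every control mouse, beside 14.2% of all genes. Both comparisons that involve DSS use the same 3 DSS mice, so the fall and the rise are not independent of each other.

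**Figure D1:**
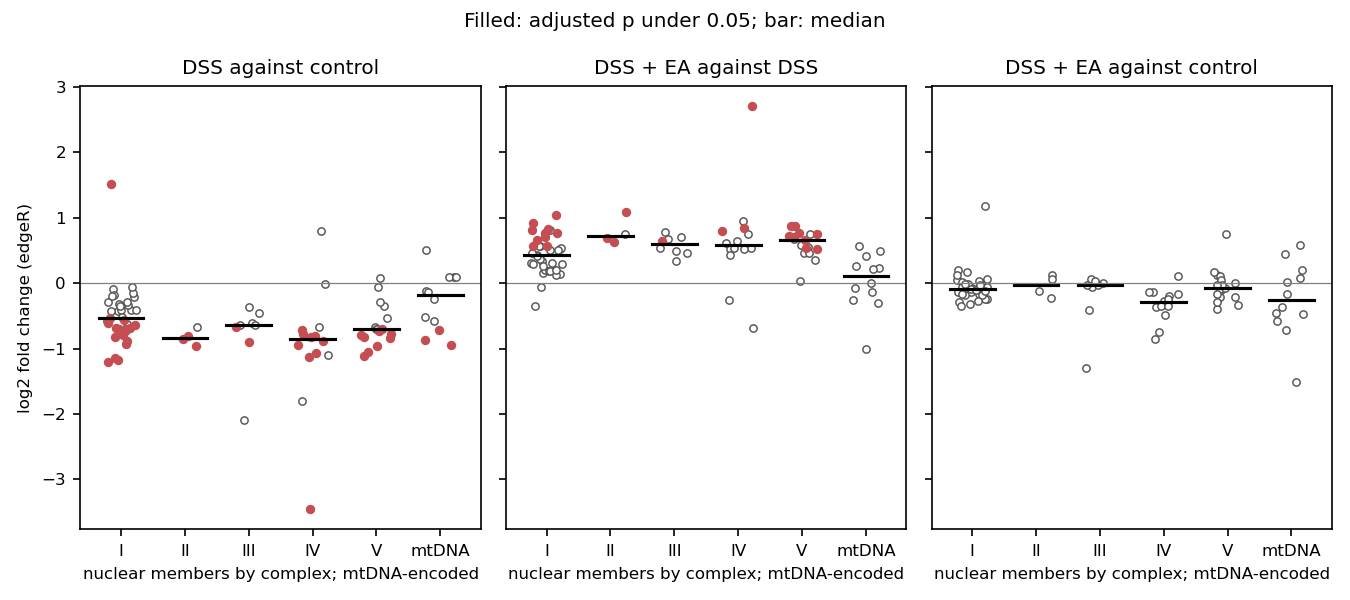
Log2 fold change (vertical axis, edgeR) of each tested nuclear member by complex and of the mitochondrially encoded (mtDNA) members, in 3 panels for the 3 comparisons. Filled points passed an adjusted p under 0.05 and bars are medians. Nuclear medians lie between -0.54 and -0.85 for DSS against control and between 0.43 and 0.72 for DSS + EA against DSS.

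The counts of calls depended on single mice, DSS mouse 1 among them. Relative to the control mean, the median over the 80 nuclear members of log2(CPM + 1) was -0.21 in DSS mouse 1, -0.97 in DSS mouse 2 and -0.96 in DSS mouse 3. The same median was -0.06, 0.01 and 0.07 in the control mice and -0.19, -0.02 and -0.13 in the DSS + EA mice. DSS mouse 1 thus lay beside the DSS + EA mice and was the highest of the DSS mice for 77 of the 80 members. Without it, 68 nuclear members were called lower in DSS against control (median log2 fold change -1.01), beside 23.5% of all genes in that fit, and 68 were called higher in DSS + EA against DSS (median 0.84), beside 22.9%. The lower calls in DSS against control came to 22 and 19 without control mouse 2 or 3, beside 14.4% of all genes in either fit, and to 20 and 22 without DSS mouse 2 or 3, beside 15.3% and 16.0%. The higher calls in DSS + EA against DSS came to 16 without any single control mouse, beside 14.8% to 15.4% of all genes, and to 7 and 9 without DSS mouse 2 or 3, beside 12.2% and 14.1%. Without DSS + EA mouse 1, 2 or 3 they came to 11, 9 and 8, beside 11.3%, 12.7% and 10.5%. In the fits without DSS mouse 2 or 3 and without DSS + EA mouse 2 or 3, the share of the 80 members called higher was thus below that of all genes. With DSS + EA mice 2 and 3, which held pancreatic transcripts, both left out, 0 of 81 nuclear members were called higher by edgeR, beside 3.43% of all genes in that fit, 8 were higher at an unadjusted P under 0.05, and their median log2 fold change was 0.49. Of the 43 genes chosen by the rule for named genes that were called in DSS + EA against DSS, 9 were still called there (Bcs1l, Chdh, Coa3, Coa6, Dcn, Pnpt1, Slc25a20, Tefm and Try5).

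**Figure D2:**
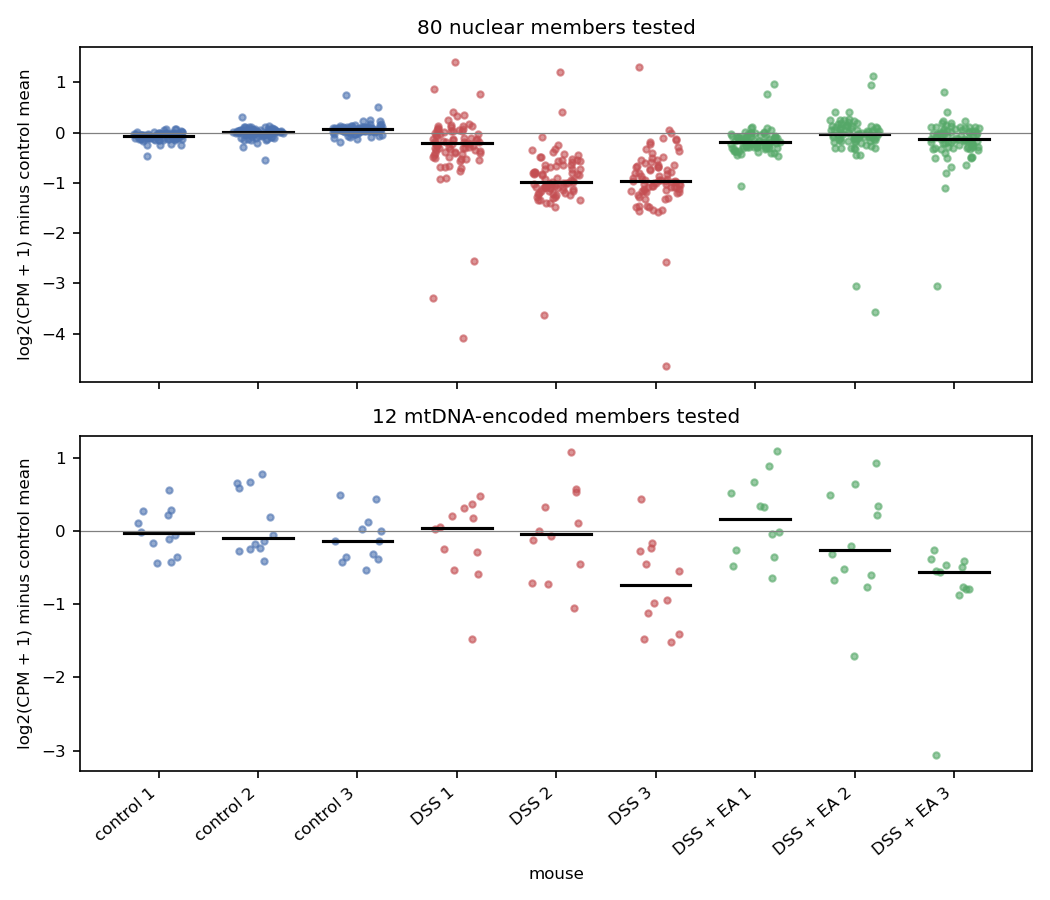
Each point is a member in a mouse, placed by log2(CPM + 1) minus the mean of the control mice (vertical axis), for 80 nuclear members above and 12 mitochondrially encoded members below, with the median as a bar. The nuclear medians of DSS mice 2 and 3 (-0.97 and -0.96) lie below those of the other 7 mice, which run from -0.21 to 0.07.

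Spread inside a group was also uneven. The median ratio of a nuclear member's highest to its lowest mouse was 1.76 among DSS mice, against 1.13 among control mice and 1.16 among DSS + EA mice. The groups therefore differed in spread as well as in level.

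Complex I takes electrons from NADH. Ndufb2, an accessory subunit of its membrane arm, was at 345, 354 and 361 CPM in control mice 1, 2 and 3, 186, 157 and 119 CPM in DSS mice 1, 2 and 3, and 267, 323 and 288 CPM in DSS + EA mice 1, 2 and 3. All 3 DSS mice were below the other 6, and the DSS + EA mice were below the control mice. Its log2 fold change was -1.20 (SE 0.19, adjusted p = 0.00117) in DSS against control and 0.93 (SE 0.19, adjusted p = 0.0059) in DSS + EA against DSS, and both calls held with each mouse left out in turn.

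Ndufa1, an X-linked accessory subunit needed for assembly of the membrane arm, was at 928, 1002 and 981 CPM in the control mice, 599, 349 and 345 CPM in the DSS mice and 723, 788 and 774 CPM in the DSS + EA mice. DSS mice 2 and 3 were lowest, and all 3 groups were apart. Its log2 fold change was -1.17 (SE 0.23, adjusted p = 0.00321) in DSS against control and 0.82 (SE 0.23, adjusted p = 0.0198) in DSS + EA against DSS, the second a call that held in 5 of 9 fits leaving out a mouse. Ndufc1, a small accessory subunit, was at 837, 953 and 958 CPM in the control mice, 570.1, 347 and 330.2 CPM in the DSS mice and 751, 904 and 909 CPM in the DSS + EA mice. Here the DSS + EA mice overlapped the control mice, and the DSS mice were below both. Its log2 fold changes were -1.14 (SE 0.23, adjusted p = 0.00399) and 1.04 (SE 0.23, adjusted p = 0.00799) in the same order.

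Split by role, a grouping chosen after the values were seen, the 7 nuclear core subunits, which carry the flavin, the iron-sulfur clusters and the catalytic fold, had a median log2 fold change of -0.42 in DSS against control with 3 called lower. The 30 other nuclear members with complex I symbols, here called accessory, had a median of -0.55 with 14 called lower. Of all genes, 19.5% were called lower. The difference between core and accessory members was not tested. The core subunit Ndufs1, chosen after its values were seen, was at 88.9, 112 and 120.3 CPM in the control mice, 84.9, 44.98 and 52.1 CPM in the DSS mice and 106, 100.1 and 114 CPM in the DSS + EA mice, so that DSS mice 2 and 3 were far below the rest while DSS mouse 1 was close to control mouse 1.

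The member called higher in DSS was Ndufa4l2, placed under complex I by its symbol only. It is a paralogue of Ndufa4 that is induced by hypoxia in many tissues. Its level was low, at 1.27, 2.33 and 1.53 CPM in the control mice, 3.86, 5.21 and 5.62 CPM in the DSS mice and 4.26, 4.86 and 2.54 CPM in the DSS + EA mice, which came from 4 to 7 counts per control mouse and 12 to 24 counts per DSS mouse. Its log2 fold change was 1.52 (SE 0.40, adjusted p = 0.0127) in DSS against control, a call lost without control mouse 1 or 3, and -0.34 (adjusted p = 0.473) in DSS + EA against DSS. Its share of the counts of Ndufa4 and Ndufa4l2 together was 0.121%, 0.248% and 0.122% in the control mice and 0.347%, 0.653% and 0.593% in the DSS mice.

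Complex II oxidizes succinate and belongs to the citric acid cycle as well. Sdha, the flavoprotein that holds the active site, was at 204, 237 and 285 CPM in control mice 1, 2 and 3, 183, 93.9 and 94.9 CPM in DSS mice 1, 2 and 3, and 254, 275 and 258 CPM in DSS + EA mice 1, 2 and 3. DSS mouse 1 lay just under the lowest control mouse, and DSS mice 2 and 3 were at about the same low level. For Sdha the log2 fold change was -0.96 (SE 0.27, adjusted p = 0.0174) in DSS against control and 1.08 (SE 0.27, adjusted p = 0.0129) in DSS + EA against DSS, and these calls held in 6 and 9 of the 9 fits that left out a mouse.

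Sdhb, the iron-sulfur subunit, was at 629, 633 and 668 CPM in the control mice, 462, 278 and 326 CPM in the DSS mice and 542, 579 and 520.2 CPM in the DSS + EA mice. The DSS + EA mice were between the other groups, which were apart. It changed by -0.85 (SE 0.20, adjusted p = 0.00848) and 0.62 (SE 0.20, adjusted p = 0.0386) on the log2 scale in the same order, and the second call was lost in 8 of 9 fits that left out a mouse.

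The membrane anchors are Sdhc and Sdhd. Sdhc was at 274, 306 and 290.5 CPM in the control mice, 221, 135 and 142 CPM in the DSS mice and 264, 273 and 264 CPM in the DSS + EA mice, with log2 fold changes of -0.81 (adjusted p = 0.0118) and 0.69 (adjusted p = 0.0275), of which the second held in 4 of 9 fits leaving out a mouse. Sdhd was at 446, 515 and 529.6 CPM in the control mice, 502, 196 and 233 CPM in the DSS mice and 512, 542 and 507 CPM in the DSS + EA mice. For Sdhd, DSS mouse 1 was within the range of the control mice, and neither log2 fold change passed the test, at -0.68 (adjusted p = 0.109) and 0.74 (adjusted p = 0.0881). Both were called without DSS mouse 1, at -1.24 (adjusted p = 0.000279) and 1.305 (adjusted p = 0.00034).

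Complex III passes electrons from ubiquinol to cytochrome c. Uqcrh, the hinge protein that holds cytochrome c1, was at 1088, 1162 and 1034 CPM in control mice 1, 2 and 3, 820.3, 487 and 446 CPM in DSS mice 1, 2 and 3, and 804, 885 and 782 CPM in DSS + EA mice 1, 2 and 3. The DSS + EA mice were below every control mouse, and DSS mouse 1 lay among them. Its log2 fold change was -0.91 (SE 0.24, adjusted p = 0.013) in DSS against control and 0.50 (SE 0.24, adjusted p = 0.124) in DSS + EA against DSS. The second was 0.85 and called (adjusted p = 0.00159) without DSS mouse 1.

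Uqcrc1, a core protein on the matrix side, was at 340.3, 381 and 419 CPM in the control mice, 326, 192 and 195 CPM in the DSS mice and 384, 360.4 and 369.9 CPM in the DSS + EA mice. DSS mice 2 and 3 were close to each other and below every other mouse. Its log2 fold changes were -0.68 (adjusted p = 0.0354) and 0.64 (adjusted p = 0.0481), and these calls held in 3 and 1 of the 9 fits that left out a mouse. The second was 0.97 without DSS mouse 1.

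Complex IV reduces oxygen, and several of its nuclear subunits exist as a pair of isoforms with different tissue use. Cox7a1, the isoform of subunit VIIa that predominates in heart and skeletal muscle, changed most of all members. It was at 170.0, 165 and 185 CPM in control mice 1, 2 and 3, 28.6, 13.04 and 5.93 CPM in DSS mice 1, 2 and 3, and 82.8, 128 and 99.3 CPM in DSS + EA mice 1, 2 and 3. Each group was apart from the others, with means of 173 ± 10.6 CPM (SD, n = 3), 15.9 ± 11.6 CPM (SD, n = 3) and 103 ± 22.7 CPM (SD, n = 3). It was 10.9-fold lower in DSS than in control, with a log2 fold change of -3.45 (SE 0.46, adjusted p = 0.000439), and 6.52-fold higher in DSS + EA than in DSS, with a log2 fold change of 2.71 (SE 0.45, adjusted p = 0.00211). Both calls held with each mouse left out in turn, and without DSS mouse 1 the log2 fold changes were -4.18 and 3.44. With DSS + EA mice 2 and 3 both left out the second was 2.40 (adjusted p = 0.0569). Against control, the DSS + EA mice were at -0.75 (adjusted p = 0.402). The study's rule for a differentially expressed gene was a log2 fold change beyond 2.5 and P under 0.01, there with DESeq2. With these thresholds on the edgeR values, Cox7a1 was the 1 nuclear member passing in each of the first comparisons. Beside it were 3.57% of all genes lower and 2.91% higher.

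Among the reads of both subunit VIIa isoforms, Cox7a1 and the widely expressed Cox7a2, the Cox7a1 share was 8.09%, 7.77% and 8.14% in the control mice, 1.60%, 1.38% and 0.623% in the DSS mice, and 4.50%, 6.69% and 5.34% in the DSS + EA mice. The exact two-sided permutation p was 0.1 for DSS against control and 0.1 for DSS + EA against DSS, the smallest that 3 against 3 mice allow. These shares do not depend on library scaling. Muscle markers followed Cox7a1 in part. Summed over 7 smooth muscle markers, the level was 3582, 3433 and 2888 CPM in the control mice, 1820, 1152 and 2197 CPM in the DSS mice, and 2307, 2241 and 2273 CPM in the DSS + EA mice, and 6 of the 7 were called lower in DSS against control and 2 higher in DSS + EA against DSS, beside 19.5% and 17.2% of all genes. Without DSS mouse 1 these counts were also 6 and 2, beside 23.5% and 22.9%. The median log2 fold change of the 7 in DSS + EA against DSS was 0.53, and 0.38 with DSS + EA mice 2 and 3 left out. DSS mouse 3, the lowest for Cox7a1, had the highest smooth muscle sum of the DSS mice. Tagln, an actin-binding protein and the most abundant of them, was at 849, 878 and 619 CPM in the control mice, 495, 234 and 481 CPM in the DSS mice and 521, 554 and 556 CPM in the DSS + EA mice, with log2 fold changes of -0.96 (adjusted p = 0.0211) and 0.43 (adjusted p = 0.245). Summed over 10 striated muscle markers, the level was 37.9, 29.6 and 37.2 CPM in the control mice, 24.8, 11.95 and 11.2 CPM in the DSS mice, and 31.3, 26.9 and 33.3 CPM in the DSS + EA mice. Ckm, muscle creatine kinase and the most abundant of these, was at 24.9, 16.3 and 24.9 CPM in the control mice, 6.11, 0.435 and 1.25 CPM in the DSS mice and 17.7, 17.2 and 15.2 CPM in the DSS + EA mice, while the fast myosins Myh1 and Myh4 were at 0 in all 9 mice. Of the 3 tested, 1 was called lower in DSS and 2 higher in DSS + EA against DSS, beside the same shares of all genes. Without DSS mouse 1, 2 of the 3 were called lower and 2 higher, beside 23.5% and 22.9%. The log2 fold changes of Ckm were -3.16 (adjusted p = 0.00312) and 2.76 (adjusted p = 0.00821), and without DSS mouse 1 they were -4.78 and 4.38. With DSS + EA mice 2 and 3 left out the second was 2.85. Without Ckm the sum was 12.96, 13.3 and 12.3 CPM in the control mice, 18.7, 11.5 and 9.99 CPM in the DSS mice and 13.7, 9.71 and 18.1 CPM in the DSS + EA mice, so that the groups overlapped. The other tested markers, chosen after their values were seen, were Acta1, skeletal muscle actin, with log2 fold changes of -1.45 (adjusted p = 0.054) and 1.67 (adjusted p = 0.0347), and Mb, myoglobin, with 0.77 (adjusted p = 0.145) and -0.33 (adjusted p = 0.529). The part of muscle content in the change of Cox7a1 was not tested.

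Cox5b, a regulatory subunit on the matrix side, was at 1448, 1505 and 1614 CPM in the control mice, 950.0, 753 and 679 CPM in the DSS mice and 1271, 1644 and 1242 CPM in the DSS + EA mice. The DSS mice were below the other 6. Its log2 fold changes of -0.94 (SE 0.20, adjusted p = 0.00458) and 0.80 (SE 0.20, adjusted p = 0.0118) were both called with each mouse left out in turn. The most abundant member per kilobase of its longest transcript was Cox8a, with group means of 7348, 3999 and 5718 CPM per kilobase in control, DSS and DSS + EA. It was chosen after its values were seen, and its log2 fold changes were -0.88 (adjusted p = 0.0138) and 0.52 (adjusted p = 0.107).

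The other minor isoforms were at low levels. Cox6b2, the testis form of subunit VIb, was at 9.15, 8.64 and 9.96 CPM in the control mice, 26.1, 12.6 and 9.67 CPM in the DSS mice and 9.13, 11.2 and 9.52 CPM in the DSS + EA mice, with log2 fold changes of 0.79 (adjusted p = 0.0978) and -0.69 (adjusted p = 0.149). They were 0.25 and -0.15 without DSS mouse 1, and the first was 1.05 and called (adjusted p = 0.0315) without DSS mouse 3. Its share of the counts of Cox6b1 and Cox6b2 together was 0.500%, 0.457% and 0.499% in the control mice, 1.74%, 1.33% and 1.14% in the DSS mice, and 0.595%, 0.629% and 0.570% in the DSS + EA mice, so the DSS mice were above the other 6. The exact two-sided permutation p was 0.1 in both comparisons with DSS. This share also moves with Cox6b1, which was at -0.37, -1.02 and -1.18 in the DSS mice, as log2(CPM + 1) minus the control mean. The level of Cox6b2 itself in DSS mouse 3 lay within the range of the control mice. Cox8b, a muscle form of subunit VIII, was at 4.83, 4.99 and 3.83 CPM in the control mice, 2.25, 2.17 and 1.87 CPM in the DSS mice and 3.65, 5.60 and 1.59 CPM in the DSS + EA mice and was not called, at -1.11 (adjusted p = 0.0656) and 0.75 (adjusted p = 0.211), although the first was called in 1 of 9 fits leaving out a mouse. Cox4i2, a form of subunit IV known from lung, held no more than 11 counts in any mouse, and Cox6a2, the muscle form of subunit VIa, no more than 16. Of the counts of Cox4i1 and Cox4i2 together, Cox4i2 held 0.111%, 0.0720% and 0.103% in the control mice. It held 0.154%, 0.204% and 0.192% in the DSS mice and 0.0318%, 0.127% and 0.0681% in the DSS + EA mice. The exact two-sided permutation p of this share was 0.1 in both comparisons with DSS. It was 0.3 and 0.8 for the Cox6a2 share, and 0.5 and 0.8 for the Cox8b share. The Cox4i2 share also moves with Cox4i1, which on the same log2 scale was at -0.40, -1.08 and -0.93 in the DSS mice. Cox4i2 itself was at 0.22, 0.02 and 0.07 in the DSS mice, against 0.185, -0.33 and 0.14 in the control mice, so these groups overlapped.

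**Figure D3:**
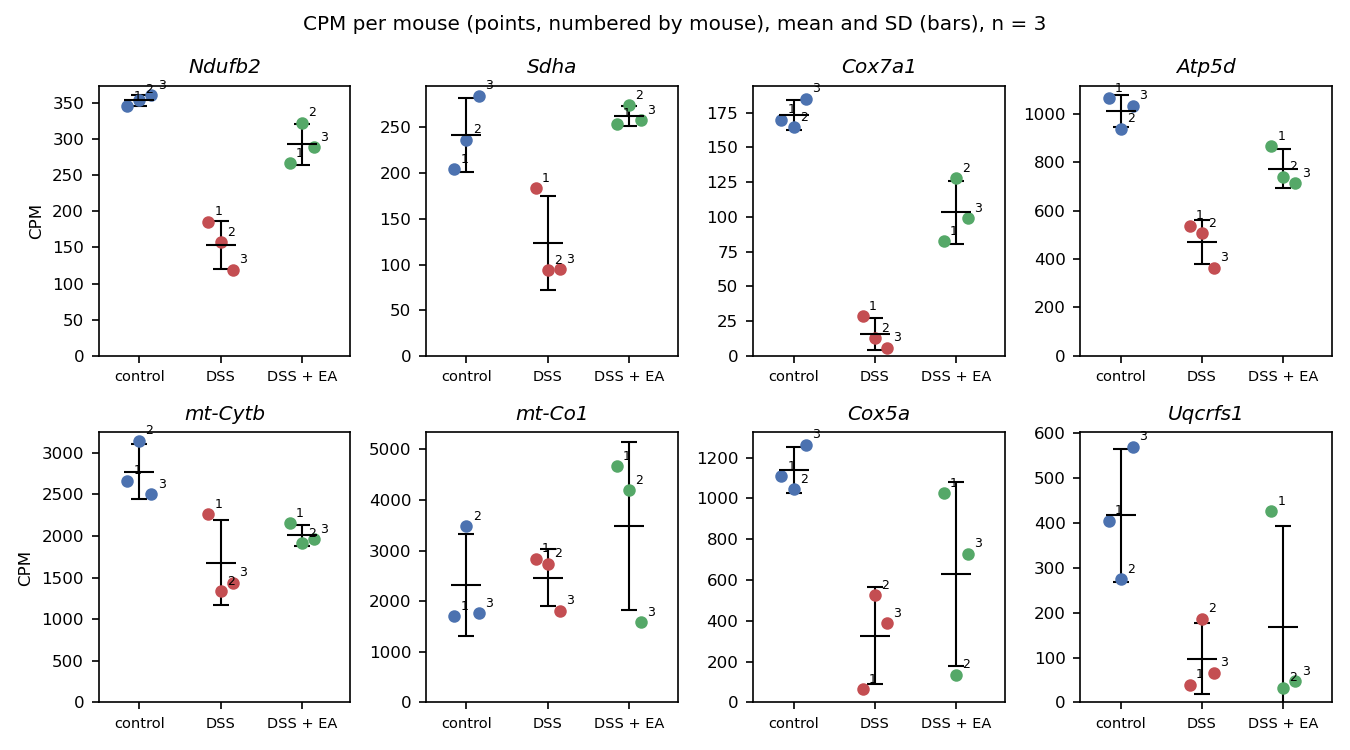
CPM per mouse (vertical axis from 0, points numbered by mouse) for 8 members in the 3 groups, with group means and SD as bars, which are cut at 0 for Uqcrfs1 in DSS + EA. Cox7a1 separates the 3 groups, mt-Co1 overlaps between all of them, and Cox5a and Uqcrfs1 vary widely inside the DSS and DSS + EA groups.

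Complex V makes ATP. Atp5d, the delta subunit of its catalytic head, was at 1065, 938 and 1033 CPM in control mice 1, 2 and 3, 537, 508 and 365 CPM in DSS mice 1, 2 and 3, and 866, 739.5 and 713 CPM in DSS + EA mice 1, 2 and 3. The 3 groups were apart, with the DSS + EA mice in between. Atp5d had a log2 fold change of -1.11 (SE 0.20, adjusted p = 0.00186) in DSS against control and 0.72 (SE 0.19, adjusted p = 0.0179) in DSS + EA against DSS. The second call held in 8 of 9 fits leaving out a mouse.

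Atp5j, coupling factor 6 of the peripheral stalk, was at 1076, 1199 and 1252 CPM in the control mice, 840.3, 493 and 483 CPM in the DSS mice and 1051, 1146 and 1113 CPM in the DSS + EA mice. The DSS + EA mice overlapped the control mice, and the DSS mice were below both. Its log2 fold changes were -0.96 (adjusted p = 0.00893) and 0.87 (adjusted p = 0.0169), the second a call that held in 7 of 9 fits leaving out a mouse. Atp5h, subunit d of the same stalk, changed by -0.82 (adjusted p = 0.0065) and 0.53 (adjusted p = 0.0468), the second a call that held in 1 of 9 fits leaving out a mouse.

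Subunit c, which forms the rotating ring, is encoded by Atp5g1, Atp5g2 and Atp5g3, whose mature proteins are the same. Atp5g1 was at 952, 1069 and 1069.6 CPM in the control mice, 925, 663 and 537 CPM in the DSS mice and 952, 1247 and 1171 CPM in the DSS + EA mice, with log2 fold changes of -0.54 (adjusted p = 0.0774) and 0.67 (adjusted p = 0.0419), the second a call held in 1 of 9 such fits. Atp5g3 was at 1373, 1658 and 1566 CPM in the control mice, 1679, 1135 and 950.0 CPM in the DSS mice and 1645, 1711 and 1799 CPM in the DSS + EA mice and was called in neither comparison, at -0.29 (adjusted p = 0.325) and 0.45 (adjusted p = 0.136). Both of its changes were called without DSS mouse 1, at -0.58 (adjusted p = 0.012) and 0.75 (adjusted p = 0.00418), as was the first of Atp5g1, at -0.81 (adjusted p = 0.0045). Atp5g2 was at 213, 243 and 499 CPM in the control mice, 502, 248 and 254 CPM in the DSS mice and 506, 575 and 522 CPM in the DSS + EA mice. Control mouse 3 and DSS mouse 1 were at the level of the DSS + EA mice for this gene, and its log2 fold changes of 0.07 (adjusted p = 0.891) and 0.67 (adjusted p = 0.169) were not called, while the second was 1.12 and called (adjusted p = 0.0218) without DSS mouse 1.

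**Figure D4:**
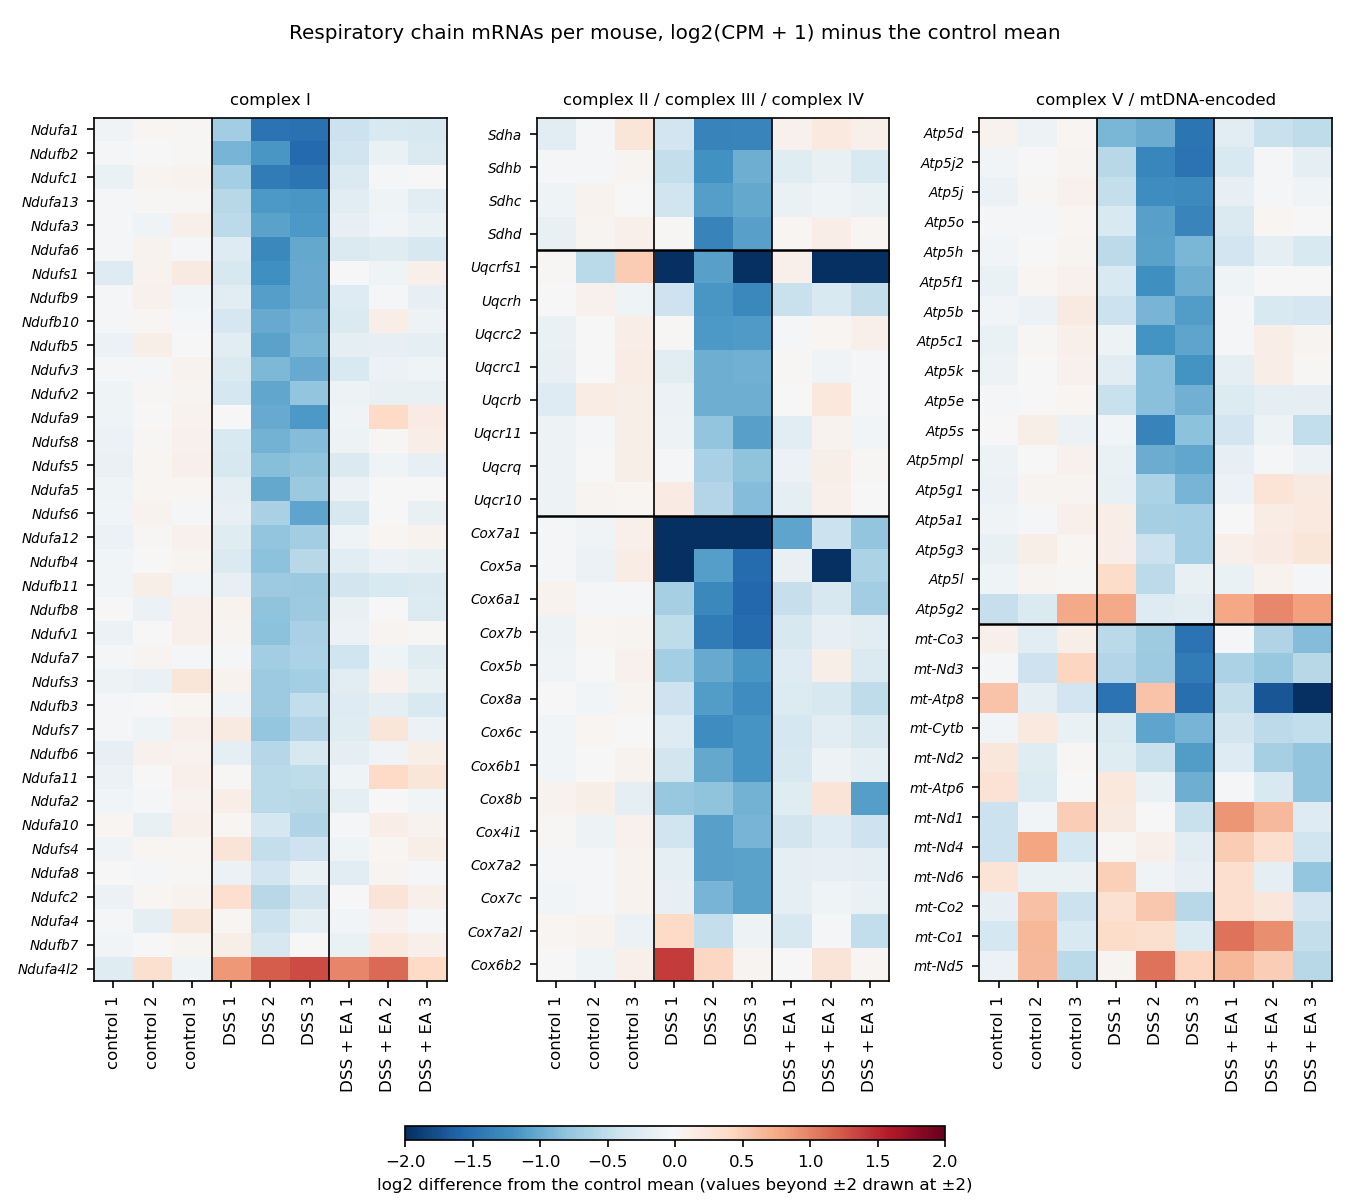
Each cell is a tested member, with 1 member not shown (vertical axis, ordered by the DSS mean inside each complex) in a mouse (horizontal axis), coloured by log2(CPM + 1) minus the control mean, with blue for lower and red for higher. DSS mice 2 and 3 are blue for most nuclear members, while the mitochondrially encoded members at the lower right vary inside every group.

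Some members varied between mice of a group far more than the rest and were chosen after their values were seen. Cox5a, a nuclear subunit on the matrix side of complex IV, was at 1109, 1045 and 1264 CPM in control mice 1, 2 and 3, 65.6, 526 and 389 CPM in DSS mice 1, 2 and 3, and 1025, 137 and 729.6 CPM in DSS + EA mice 1, 2 and 3. DSS mouse 1, the highest of the DSS mice for 77 of the 80 nuclear members, was the lowest mouse here, and DSS + EA mouse 2 was lower than DSS mice 2 and 3. Log2 fold changes for Cox5a were -1.80 (adjusted p = 0.0814) and 0.95 (adjusted p = 0.337). Uqcrfs1, the Rieske iron-sulfur protein of complex III, was at 405, 275 and 570.2 CPM in the control mice, 39.9, 187 and 66.5 CPM in the DSS mice and 427, 32.9 and 47.3 CPM in the DSS + EA mice, with DSS mouse 1 and DSS + EA mice 2 and 3 at the bottom, and was not called, at -2.09 (adjusted p = 0.0929) and 0.79 (adjusted p = 0.509).

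Low values in the same mice were seen in genes outside the symbol rule, chosen in the same way. Cyc1, cytochrome c1, was at 309.5, 342 and 364 CPM in the control mice, 46.0, 180.3 and 127 CPM in the DSS mice and 321, 68.4 and 252 CPM in the DSS + EA mice, and Ndufab1, the acyl carrier protein, was at 452, 436 and 479.8 CPM in the control mice, 26.1, 220.3 and 219 CPM in the DSS mice and 414, 143 and 364 CPM in the DSS + EA mice. DSS mouse 1 and DSS + EA mouse 2 were the lowest of their groups for Cox5a, Cyc1 and Ndufab1. The nuclear members with a highest mouse over 3 times the lowest were Uqcrfs1, Cox7a1 and Cox5a in the DSS group, Uqcrfs1, Cox8b and Cox5a in the DSS + EA group, and 0 in the control group. The cause of these low values was not tested.

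Long precursors transcribed from the compact mitochondrial genome cover the 13 mitochondrially encoded members and are then cut into mRNAs. Of the 12 tested, 3 were called lower in DSS against control, beside 19.5% of all genes, with a median log2 fold change of -0.19. edgeR and DESeq2 called 0 higher, and 0 were higher at an unadjusted P under 0.05. In DSS + EA against DSS, both tools called 0 in either direction, with 0 at an unadjusted P under 0.05 and a median of 0.11. In DSS + EA against control, both tools called 0, with 1 lower at an unadjusted P under 0.05 in edgeR and 3 in DESeq2, and a median of -0.27. The groups did not overlap for 3 of 12 lower in DSS against control and for 4 of 12 lower in DSS + EA against control, beside 25.9% and 14.2% of all genes.

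The 3 called lower in DSS were mt-Cytb, mt-Co3 and mt-Nd3. The cytochrome b mRNA mt-Cytb was at 2666, 3144 and 2504 CPM in control mice 1, 2 and 3, 2266, 1334 and 1440.3 CPM in DSS mice 1, 2 and 3, and 2149, 1915 and 1960.3 CPM in DSS + EA mice 1, 2 and 3. The DSS and DSS + EA mice were all below the control mice, and DSS mouse 1 was above the DSS + EA mice. Its log2 fold change was -0.72 (SE 0.23, adjusted p = 0.0292) in DSS against control and 0.26 (SE 0.23, adjusted p = 0.398) in DSS + EA against DSS. The second was 0.56 and called (adjusted p = 0.0148) without DSS mouse 1. The mRNA of complex IV subunit III, mt-Co3, was at 365, 289 and 369 CPM in the control mice, 233, 206 and 121 CPM in the DSS mice and 335, 223 and 185 CPM in the DSS + EA mice, with log2 fold changes of -0.87 (adjusted p = 0.0365) and 0.41 (adjusted p = 0.29). The complex I mRNA mt-Nd3 was at 24.4, 18.3 and 33.7 CPM in the control mice, 16.1, 14.6 and 8.74 CPM in the DSS mice and 15.5, 14.2 and 16.5 CPM in the DSS + EA mice, with log2 fold changes of -0.95 (adjusted p = 0.0264) and 0.23 (adjusted p = 0.572). The number of mitochondrially encoded members called lower in DSS fell to 0 without control mouse 1 or DSS mouse 3, beside 14.4% and 16.0% of all genes, and to 1 without control mouse 3 or DSS mouse 2, beside 14.4% and 15.3%. It was 2 without control mouse 2, beside 14.4%, and 4 without DSS mouse 1, beside 23.5%. In DSS + EA against DSS, 1 was called higher without DSS mouse 1, beside 22.9% of all genes. For these members edgeR called 0 with DSS + EA mice 2 and 3 left out, with 1 higher at an unadjusted P under 0.05.

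The catalytic subunits of complex IV did not follow mt-Co3. The mRNA of subunit I, mt-Co1, was at 1710.5, 3483 and 1764 CPM in control mice 1, 2 and 3, 2838, 2739.8 and 1813 CPM in DSS mice 1, 2 and 3, and 4666, 4189 and 1581 CPM in DSS + EA mice 1, 2 and 3. Control mouse 2 and DSS + EA mice 1 and 2 were high, and every group overlapped the others. mt-Co1 had log2 fold changes of 0.09 (adjusted p = 0.886) and 0.50 (adjusted p = 0.372). The mRNA of subunit II, mt-Co2, was at 897, 1520.1 and 752 CPM in the control mice, 1252, 1459 and 688 CPM in the DSS mice and 1268, 1178 and 775 CPM in the DSS + EA mice, with log2 fold changes of 0.10 (adjusted p = 0.839) and -0.08 (adjusted p = 0.881).

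Complex I has the most mitochondrially encoded mRNAs, and apart from mt-Nd3 they were not called with all 9 mice in the fit. The mRNA mt-Nd1 was at 736, 959.5 and 1393 CPM in the control mice, 1124, 993 and 729 CPM in the DSS mice and 1842, 1551 and 828 CPM in the DSS + EA mice, with log2 fold changes of -0.12 (adjusted p = 0.801) and 0.57 (adjusted p = 0.201). For mt-Nd4 the levels were 1698, 3942 and 1792 CPM in the control mice, 2337, 2464 and 1955 CPM in the DSS mice and 3266, 2886 and 1730.0 CPM in the DSS + EA mice, with log2 fold changes of -0.14 (adjusted p = 0.779) and 0.22 (adjusted p = 0.644). Control mouse 2 was high for mt-Nd4, as it was for mt-Co1 and mt-Co2. The mRNA mt-Nd2 was at 129.9, 93.8 and 113 CPM in the control mice, 93.9, 81.3 and 50.6 CPM in the DSS mice and 92.8, 69.8 and 64.1 CPM in the DSS + EA mice, with log2 fold changes of -0.58 (adjusted p = 0.0981) and 0.01 (adjusted p = 0.988), of which the first was -0.79 and called (adjusted p = 0.0304) without DSS mouse 1. The mRNA mt-Nd5 was at 102, 174 and 75.9 CPM in the control mice, 114, 235 and 149 CPM in the DSS mice and 175, 155 and 74.9 CPM in the DSS + EA mice, and its log2 fold change of 0.51 (adjusted p = 0.336) in DSS against control was the highest of the 12. The gene mt-Nd6 lies on the opposite strand to the others, and its levels were 23.1, 17.3 and 17.2 CPM in the control mice, 27.0, 18.0 and 16.9 CPM in the DSS mice and 24.3, 16.4 and 10.8 CPM in the DSS + EA mice. The genes mt-Nd5 and mt-Nd6 share 14 bases on opposite strands, and the use of strand in counting is not given in the sources used here. mt-Nd4l held between 2 and 8 counts in each mouse and was not tested. It shares 7 bases with mt-Nd4 on the same strand, so the assignment of a read to either is uncertain.

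Complex V has mt-Atp8 and mt-Atp6, whose reading frames overlap on the same transcript, so the assignment of a read to either is uncertain. They share 43 bases at chrM:7927-7969 on the plus strand of GRCm38, shown here because a read over them could count for both, with the start codon of mt-Atp6 in capitals. The sequence is from GENCODE M21.
mt-Atp8 and mt-Atp6: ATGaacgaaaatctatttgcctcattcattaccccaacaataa

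The mRNA mt-Atp8 was at 50.6, 29.9 and 25.7 CPM in the control mice, 11.6, 50.8 and 11.2 CPM in the DSS mice and 24.0, 9.71 and 3.17 CPM in the DSS + EA mice. DSS mouse 2 was as high as control mouse 1, while DSS mice 1 and 3 were below every control mouse. The log2 fold changes of mt-Atp8 were -0.51 (adjusted p = 0.583) and -1.01 (adjusted p = 0.3), the first between -1.62 and -0.17 with a mouse left out. The mRNA mt-Atp6 was at 218, 147 and 178 CPM in the control mice, 207, 164 and 89.9 CPM in the DSS mice and 174, 144 and 103 CPM in the DSS + EA mice, with log2 fold changes of -0.24 (adjusted p = 0.568) and -0.13 (adjusted p = 0.77). Per kilobase of gene, the control means of the 13 ran from 2422 CPM for mt-Cytb, 1798 CPM for mt-Nd4, 1544 CPM for mt-Co2 and 1501 CPM for mt-Co1 down to 37.0 CPM for mt-Nd6 and 8.28 CPM for mt-Nd4l. For overlapping genes these values depend on how reads were assigned, mt-Nd4l among them.

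As a share of all deposited counts, nuclear members exceeded mitochondrially encoded members in every mouse. The mitochondrial ribosomal RNAs mt-Rnr1 and mt-Rnr2 had no counts in any library. How mitochondrial reads were aligned and counted is not given. These shares and the ratio below may therefore differ from those in the tissue RNA. Nuclear members held 6.90%, 6.35% and 7.11% of counts in the control mice, 5.55%, 3.84% and 3.44% in the DSS mice, and 5.98%, 6.07% and 5.83% in the DSS + EA mice. The 3 groups did not overlap, with the DSS mice lowest. Mitochondrially encoded members held 0.906%, 1.29% and 0.896% in the control mice, 1.03%, 1.06% and 0.701% in the DSS mice, and 1.41%, 1.16% and 0.704% in the DSS + EA mice, and the groups overlapped.

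The log2 ratio of mitochondrially encoded to nuclear member counts, which needs no library scaling, was -2.93, -2.30 and -2.99 in the control mice, -2.44, -1.86 and -2.30 in the DSS mice, and -2.08, -2.38 and -3.05 in the DSS + EA mice. The group means were -2.74 ± 0.38, -2.20 ± 0.30 and -2.50 ± 0.50 (SD, n = 3). The groups overlapped. The difference was 0.54 for DSS against control (exact two-sided permutation p = 0.2), -0.31 for DSS + EA against DSS (exact p = 0.5) and 0.24 for DSS + EA against control (exact p = 0.7), where 0.1 is the smallest p that 3 against 3 mice allow. The last difference was -0.18 when the mean of log2(CPM + 1) over genes replaced the sum of counts.

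**Figure D5:**
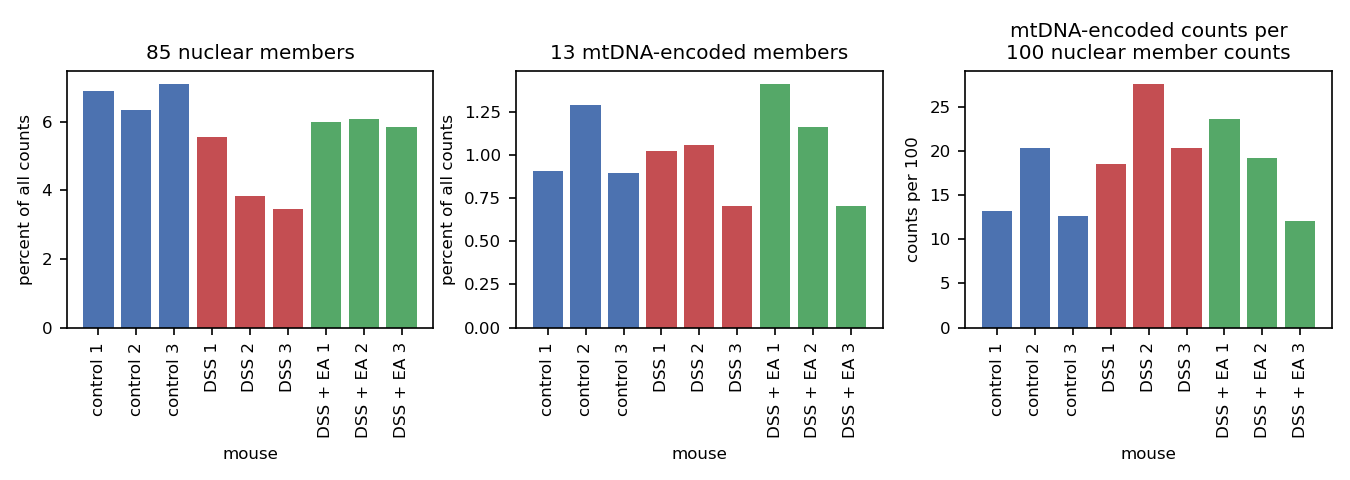
Percent of all counts on the 85 nuclear members (left) and on the 13 mitochondrially encoded members (middle), and mitochondrially encoded counts per 100 nuclear member counts (right), as a bar per mouse from 0. DSS mice 2 and 3 have the lowest nuclear shares (3.84% and 3.44%), while the mitochondrially encoded shares overlap between groups.

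Promoters of nuclear members were examined because the members moved together. RefSeq windows of GRCm38.p6, from 250 bases before to 50 after the transcript start, were matched for 67 of the 80 tested nuclear members, in 72 windows of 32851 in all. The core of the NRF1 site, GCGCA and GCGC on either strand with any base between them, was in 18 of the 72 member windows and 4.60% of all windows. The ETS core CCGGAAG was in 22.2% and 8.86%, the YY1 core AAGATGGC in 13.9% and 2.75%, and the ERRA half-site TCAAGGTCA in 2.78% and 0.423%. These are matches of letters and do not show binding. Of the 17 members with an NRF1 core, 10 were called lower in DSS against control, beside 19.5% of all genes, and their median log2 fold change was -0.68. Of the 50 members without it, 25 were called lower and their median was -0.70. In DSS + EA against DSS, 5 of the 17 and 19 of the 50 were called higher, beside 17.2% of all genes, with medians of 0.57 and 0.54.

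Sdha and Cox6a1, the ubiquitous isoform of subunit VIa, are printed as members lower in DSS whose upstream stretch holds the NRF1 core at 2 places, and Cox7a1 as the member that changed most, with none of the 4 motifs in its window. Capitals mark the NRF1 core, and each stretch ends before the first transcribed base of the RefSeq and GENCODE models. Sdha is at chr13:74350281-74350350 on the minus strand, Cox6a1 at chr5:115348982-115349126 on the minus strand and Cox7a1 at chr7:30184051-30184143 on the plus strand.
Sdha: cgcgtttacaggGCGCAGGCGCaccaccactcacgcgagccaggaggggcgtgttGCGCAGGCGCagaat
Cox6a1: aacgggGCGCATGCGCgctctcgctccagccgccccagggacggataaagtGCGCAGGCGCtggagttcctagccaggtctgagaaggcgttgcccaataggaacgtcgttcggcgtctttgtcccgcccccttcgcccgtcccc
Cox7a1: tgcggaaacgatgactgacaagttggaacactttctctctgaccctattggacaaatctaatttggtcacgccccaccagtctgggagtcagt

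Cox6a1, chosen after its values were seen, had levels of 1939.7, 1790.1 and 1797 CPM in the control mice, 1159, 755 and 620.1 CPM in the DSS mice and 1339.8, 1475 and 1141 CPM in the DSS + EA mice and log2 fold changes of -1.12 (adjusted p = 0.00505) and 0.64 (adjusted p = 0.0597). Its DSS mouse 1 was again above DSS mice 2 and 3. All DSS + EA mice were below all control mice.

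Genes that work with the chain but lie outside the symbol rule moved the same way for the most part. Of 11 tested partners, such as electron carriers and dehydrogenases that feed ubiquinone, 8 were called lower in DSS against control and 8 higher in DSS + EA against DSS, with median log2 fold changes of -1.17 and 0.98 beside 0.02 and -0.02 over all genes tested. Over all genes, 19.5% were called lower and 17.2% higher in these comparisons. The counts were 9 and 8 without DSS mouse 1, and with DSS + EA mice 2 and 3 left out 1 was called higher. Chdh, choline dehydrogenase, was at 28.0, 30.6 and 21.1 CPM in the control mice, 4.18, 3.26 and 3.75 CPM in the DSS mice and 21.9, 17.2 and 27.6 CPM in the DSS + EA mice, so the DSS mice were far below the rest. Log2 fold changes for Chdh were -2.83 (adjusted p = 9.81e-05) and 2.58 (adjusted p = 0.000386). Etfb, a subunit of the electron transfer flavoprotein, changed by -1.28 (adjusted p = 0.00214) and 1.06 (adjusted p = 0.00706). Cycs, somatic cytochrome c, was at 626, 773 and 878 CPM in the control mice, 615, 398 and 366 CPM in the DSS mice and 1004, 1094 and 1339 CPM in the DSS + EA mice. The DSS + EA mice were above every control mouse for Cycs, which changed by -0.72 (adjusted p = 0.037) and 1.32 (adjusted p = 0.00354), the first a call that held in 5 of 9 fits leaving out a mouse.

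Assembly factors bring the subunits and their cofactors together. Of 47 tested, 27 were called lower and 1 higher in DSS against control, and 21 higher and 1 lower in DSS + EA against DSS, with medians of -0.74 and 0.61. The shares of all genes were 19.5% and 21.5%, and 17.2% and 18.3%. Without DSS mouse 1 there were 29 lower and 2 higher in the first comparison, and 27 higher and 1 lower in the second, and with DSS + EA mice 2 and 3 left out 6 were higher in the second. Coa3, which couples mt-Co1 translation to complex IV assembly, was at 310.3, 335 and 339.9 CPM in the control mice, 95.5, 65.8 and 59.0 CPM in the DSS mice and 271, 285 and 298 CPM in the DSS + EA mice. The DSS mice were all far below the other 6, DSS mouse 1 included. Coa3 had log2 fold changes of -2.16 (adjusted p = 9.09e-05) and 1.96 (adjusted p = 0.000365). Bcs1l, which inserts the Rieske protein into complex III, changed by -2.42 (adjusted p = 0.000294) and 2.41 (adjusted p = 0.000629), and Coa6, a copper delivery factor, by -1.53 (adjusted p = 0.000177) and 1.23 (adjusted p = 0.000945). Coa5 went the other way, with 0.80 (adjusted p = 0.0141) and -0.87 (adjusted p = 0.0125).

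Among transcriptional regulators of mitochondrial genes, calls in DSS + EA against DSS were near the shares of all genes. Of 10 tested, 3 were called lower and 1 higher in DSS against control, and 2 higher and 2 lower in DSS + EA against DSS, beside 19.5%, 21.5%, 17.2% and 18.3% of all genes. Without DSS mouse 1 the counts were 4 lower and 1 higher in the first comparison, and 4 higher and 3 lower in the second. With DSS + EA mice 2 and 3 left out edgeR called 0, with 2 higher and 1 lower at an unadjusted P under 0.05. Ppargc1a, a coactivator of mitochondrial biogenesis, was at 7.37, 7.98 and 7.66 CPM in the control mice, 1.93, 1.52 and 0.936 CPM in the DSS mice and 4.57, 9.34 and 2.54 CPM in the DSS + EA mice. The DSS mice were below the other 6, and the DSS + EA mice overlapped the control mice. These are low levels that rest on few reads per mouse. On the log2 scale Ppargc1a changed by -2.36 (adjusted p = 0.00438) and 1.86 (adjusted p = 0.0184), the second a call held in 6 of 9 fits leaving out a mouse. Its relative Ppargc1b changed by -1.90 (adjusted p = 0.00174) and 1.85 (adjusted p = 0.00305). Gabpa, an ETS factor of respiratory chain promoters, was at 17.5, 22.6 and 24.9 CPM in the control mice, 44.7, 43.9 and 59.6 CPM in the DSS mice and 23.4, 20.2 and 24.7 CPM in the DSS + EA mice, higher in every DSS mouse than in the other 6, with 1.19 (adjusted p = 0.00228) and -1.11 (adjusted p = 0.00446). Nrf1 was at 0.51 (adjusted p = 0.134) and -0.76 (adjusted p = 0.0447), the second a call held in 1 of 9 fits leaving out a mouse. Esrra, the orphan receptor ERRA, was at -0.75 (adjusted p = 0.185) and 0.14 (adjusted p = 0.816).

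Of 24 genes for copying, transcription and processing of mitochondrial DNA and its RNA, 7 were called lower in DSS against control and 5 higher in DSS + EA against DSS, with medians of -0.55 and 0.33. These are 29.2% and 20.8% of the list, beside 19.5% and 17.2% of all genes. They were 9 and 8 of 25 without DSS mouse 1, and with DSS + EA mice 2 and 3 left out 2 were higher. Tfam, which packages mitochondrial DNA and starts its transcription, was at 40.9, 43.6 and 41.4 CPM in the control mice, 33.5, 30.4 and 31.8 CPM in the DSS mice and 41.4, 42.2 and 39.0 CPM in the DSS + EA mice. The DSS mice were below the other 6, but neither change passed the test, at -0.40 (adjusted p = 0.0766) and 0.36 (adjusted p = 0.111). The first was -0.46 and called (adjusted p = 0.0459) without DSS mouse 1. The mitochondrial RNA polymerase Polrmt was at log2 fold changes of -0.98 (adjusted p = 0.0668) and 0.09 (adjusted p = 0.886), the first -1.36 and called (adjusted p = 0.028) without DSS mouse 3. Tefm, its elongation factor, changed by -1.27 (adjusted p = 0.00693) and 1.69 (adjusted p = 0.00237). Fastkd1, an RNA-binding protein of mitochondria, changed by -2.15 (adjusted p = 0.000836) and 1.33 (adjusted p = 0.0128), and Pnpt1, an RNA-degrading enzyme, by -0.78 (adjusted p = 0.0294), a call that held in 5 of 9 fits leaving out a mouse, and 1.40 (adjusted p = 0.0029). Polg2, the accessory subunit of the mitochondrial DNA polymerase, was at 13.2, 8.31 and 14.2 CPM in the control mice, 3.22, 3.91 and 4.06 CPM in the DSS mice and 3.96, 3.36 and 4.12 CPM in the DSS + EA mice. It was lower in the DSS + EA mice too, with -1.66 (adjusted p = 0.00203) in DSS against control, 0.03 (adjusted p = 0.95) in DSS + EA against DSS and -1.63 (adjusted p = 0.0177) in DSS + EA against control, the last a call that held in 4 of 9 fits leaving out a mouse.

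Among 18 citric acid cycle and pyruvate dehydrogenase genes, 11 were called lower in DSS against control and 8 higher in DSS + EA against DSS, with medians of -0.71 and 0.73, beside 19.5% and 17.2% of all genes. The counts were 17 and 16 without DSS mouse 1. With DSS + EA mice 2 and 3 left out edgeR called 0 higher, with 5 higher at an unadjusted P under 0.05. Idh2, mitochondrial isocitrate dehydrogenase, changed by -1.42 (adjusted p = 0.00316) and 1.06 (adjusted p = 0.0151). Fh1, fumarase, changed by -1.18 (adjusted p = 0.0038) and 1.11 (adjusted p = 0.00674). Idh3a, a subunit of the NAD-dependent isocitrate dehydrogenase, changed by -0.98 (adjusted p = 0.0104) and 1.08 (adjusted p = 0.00847).

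Of 19 genes for carriers, pores and the import and folding of mitochondrial proteins, 4 were called lower and 1 higher in DSS against control, and 6 higher and 1 lower in DSS + EA against DSS, with medians of -0.34 and 0.49. The 21.1% called lower in DSS is near the 19.5% of all genes, while the 31.6% called higher in DSS + EA stands beside 17.2%. Without DSS mouse 1 there were 8 lower and 1 higher in the first comparison, 9 higher and 2 lower in the second, and with DSS + EA mice 2 and 3 left out 1 higher. Slc25a20, the carnitine and acylcarnitine carrier, changed by -1.78 (adjusted p = 0.00102) and 2.19 (adjusted p = 0.00073), and Vdac3, an outer membrane pore, by -1.38 (adjusted p = 0.00234) and 1.10 (adjusted p = 0.00912). Slc25a4, the muscle form of the ADP and ATP carrier, moved the other way, at 0.58 (adjusted p = 0.035) and -0.62 (adjusted p = 0.0309), calls that held in 2 of 9 fits each.

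Genes of a list for defence against reactive oxygen, which includes Sod1 and Cat, were called in both directions. Of 11 tested, 6 were called lower and 2 higher in DSS against control, and 5 higher and 2 lower in DSS + EA against DSS. The shares of all genes were 19.5% and 21.5%, and 17.2% and 18.3%, so 2 of 11 in either comparison is near the share of all genes. The same counts were 6 and 2, and 5 and 3, without DSS mouse 1. With DSS + EA mice 2 and 3 left out edgeR called 0, with 2 higher and 1 lower at an unadjusted P under 0.05. Sod2, the manganese superoxide dismutase of the matrix, was at 137, 140.0 and 148 CPM in the control mice, 397, 769 and 1353 CPM in the DSS mice and 167, 204 and 177 CPM in the DSS + EA mice. It was higher in every DSS mouse than in the other 6, with 2.57 (adjusted p = 0.000688) and -2.20 (adjusted p = 0.00221). Prdx5, a peroxiredoxin, was at 458, 463 and 507 CPM in the control mice, 659, 776 and 2295 CPM in the DSS mice and 591, 527 and 630.3 CPM in the DSS + EA mice, with DSS mouse 3 far above the rest and log2 fold changes of 1.39 (adjusted p = 0.022) and -1.09 (adjusted p = 0.0597). Without DSS mouse 3 they were 0.59 (adjusted p = 0.0291) and -0.30 (adjusted p = 0.231). The first was not called without control mouse 1, 2 or 3, and the second was -1.37 and called (adjusted p = 0.0117) without DSS mouse 1. Those called lower in DSS included Txnrd2, mitochondrial thioredoxin reductase, at -1.38 (adjusted p = 0.0055), Aifm1, at -1.09 (adjusted p = 0.00397), and Ucp2, at -0.64 (adjusted p = 0.0109). Gpx4, which reduces lipid peroxides, was at 0.24 (adjusted p = 0.295) and -0.54 (adjusted p = 0.037), the second held in 2 of 9 fits leaving out a mouse.

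Markers of other cell types moved between the groups as well. Of 12 colonocyte markers, 7 were called lower in DSS against control and 6 higher in DSS + EA against DSS, beside 19.5% and 17.2% of all genes, with median log2 fold changes of -1.76 and 1.75. Without DSS mouse 1 these were 11 and 10, beside 23.5% and 22.9%, and with DSS + EA mice 2 and 3 left out 1 was higher, beside 3.43%. The log2 fold change of Car1 in DSS + EA against DSS was 2.05 (adjusted p = 0.049), a call that held in 4 of 9 fits leaving out a mouse. It was 3.12 without DSS mouse 1 and 1.70 (adjusted p = 0.121) without DSS mouse 3. The summed level of the colonocyte markers was 19647, 15114 and 31692 CPM in the control mice, 12387, 4357 and 2583 CPM in the DSS mice, and 15634, 19380 and 12645 CPM in the DSS + EA mice. DSS mice 2 and 3, which had the lowest nuclear respiratory chain medians, thus also had the lowest colonocyte sums. Without Car1 the sums were 9935, 9871 and 10166 CPM in the control mice, 9418, 3574 and 1945 CPM in the DSS mice, and 10138, 9390.1 and 9906 CPM in the DSS + EA mice. All 9 tested neutrophil markers were called higher in DSS against control and 7 lower in DSS + EA against DSS (1 lower with DSS + EA mice 2 and 3 left out, beside 2.05%), beside 21.5% and 18.3% of all genes, with sums of 135, 159 and 22.6 CPM in the control mice, 4544, 25164 and 27420 CPM in the DSS mice, and 1473, 1199 and 1592 CPM in the DSS + EA mice. S100a8, a neutrophil calcium-binding protein and their most abundant gene, was at 1.52, 1.99 and 0.383 CPM in the control mice, 1730.4, 15792 and 19174 CPM in the DSS mice and 644, 446 and 373 CPM in the DSS + EA mice. Of 7 tested leukocyte markers, 5 were called higher in DSS, beside the same 21.5% of all genes, with sums of 368, 388 and 341 CPM in the control mice, 837, 1180 and 2176 CPM in the DSS mice, and 672, 585 and 714 CPM in the DSS + EA mice, led by Lyz2, the lysozyme of macrophages. All 6 fibroblast markers were called higher in DSS, again beside 21.5%, with sums of 753, 824 and 820 CPM in the control mice, 4079, 4851 and 6796 CPM in the DSS mice, and 1703, 1612 and 1664 CPM in the DSS + EA mice, led by Dcn, the matrix protein decorin. In DSS + EA against DSS, 3 leukocyte and 4 fibroblast markers were called lower, beside 18.3% of all genes. Without DSS mouse 1 these were 6 and 4, beside 22.6%. Their median log2 fold changes with DSS + EA mice 2 and 3 left out were -1.04 and -1.27. All 10 pancreatic markers were called higher in DSS + EA against DSS, beside 17.2% of all genes, and Try5, a trypsin and their most abundant gene, was at 0, 0 and 0 CPM in the control mice, 1.61, 0.217 and 0 CPM in the DSS mice and 45.7, 8288 and 1812 CPM in the DSS + EA mice. The part of cell makeup in the changes of the respiratory chain mRNAs was not tested.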

How the data were processed

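The authors deposited unnormalized counts of reads by gene for colon libraries made from total RNA by PCR of full-length cDNA and read on a PromethION. The build in the submitters' processing notes is mm10. The aligner, counter, annotation and use of strand are not given in the sources used here. Of 27733 lines, 14 without counts were left out. How reads shared by paralogues or overlapping genes were assigned is likewise not given.

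The test was that of edgeR 4.0.16 under R 4.3.3 (TMM, filterByExpr, quasi-likelihood F test) in a single fit over 9 libraries with group as the only term. Standard errors are those implied by the F statistic. DESeq2 1.42.0 was an alternative. The thresholds of the study's rule were applied to the edgeR values, whereas the study used DESeq2. The functions were tested on simulated data. Values relative to control used log2(CPM + 1). Per-kilobase levels used the longest GENCODE M21 transcript. Tables and plots were made in Python 3.11.15 (matplotlib 3.10.9, pandas 2.3.3).

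Replicates are numbered in the labels, with no litter, cage or batch given, so p-values measure the spread between these samples. The members and lists were chosen with earlier results of these data known. Genes named are the mitochondrially encoded mRNAs, the Sdh genes, per complex the 2 nuclear members of smallest P in each direction and comparison with DSS, members passing the study's rule for differential expression (log2 fold change beyond 2.5 and P under 0.01), tissue isoforms with at least 10 counts in a library, subunit c genes, the 2 smallest P per direction in each pathway list, 7 regulators, and the most abundant gene of each marker list. Others are marked as chosen after their values were seen. The values of 1 member are not reported here singly, though it is in all counts. Alternatives were DESeq2, RLE scaling, library totals, scaling without mitochondrially encoded genes, a fit to only the 2 groups compared, a mean of at least 20 counts, no filter, a log2 fold change beyond 1, the study's rule, the replicate number as a block, and each mouse left out. The lists were also counted without DSS mouse 1 and with DSS + EA mice 2 and 3 left out, chosen after seeing the data.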

Additional observations from a re-analysis of the deposited data

How the results depend on the processing

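With 3 mice a group and a DSS group of uneven spread, counts of called members were less stable than their directions. Nuclear members called lower in DSS against control were 8 with a log2 fold change beyond 1, 1 by the study's rule, 23 with only the 2 groups compared, and between 19 and 68 with a mouse left out. Nuclear members called higher in DSS + EA against DSS were 3, 1, 9 and between 7 and 68 in the same order, and 0 with DSS + EA mice 2 and 3 left out, an alternative chosen after seeing the data in which the remaining mouse is assumed to vary like the other groups. Of all genes, 12.2% were called higher with only the 2 groups compared and also in the fit with 7 members called, above the share of the members. Mitochondrially encoded members called lower in DSS were 0, 0, 1 and between 0 and 4. Nuclear members called higher in DSS were 0 by the study's rule, 0 with a mean of at least 20 counts and between 0 and 2 with a mouse left out. Mitochondrially encoded members called higher in DSS + EA against DSS were between 0 and 1 with a mouse left out, as were nuclear members called lower in DSS + EA against control, which were 1 with only the 2 groups compared. DESeq2, RLE scaling, library totals, scaling without mitochondrially encoded genes and no filter kept counts of called nuclear members within 1.5 times the reported value. Over all genes in DSS + EA against control, DESeq2 called 1.28% lower and 4.59% higher, where edgeR called 0.637% and 3.00%. The cause of the other changes was not tested.

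With the replicate block, 32 nuclear members were called lower in DSS and 15 higher in DSS + EA against DSS, beside 17.4% and 15.2% of all genes, so that the second is near the share of all genes. Correlations of the deviations of same-numbered mice lay between -0.163 and 0.111, and not every mouse correlated best with its own number, so these mice share only a number.

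The log2 ratio of mitochondrially encoded to nuclear counts, with a mouse left out, lay between 0.37 and 0.76 for DSS against control, -0.52 and -0.036 for DSS + EA against DSS, and 0.023 and 0.51 for DSS + EA against control, where it was -0.18 with the mean over genes. Of 2494 values of named genes under alternatives, 2216 kept direction and side of the threshold, 216 lost their call, 19 gained it and 43 changed sign. In DSS + EA against DSS, mt-Nd2 was -0.011 with DESeq2, -0.012 with RLE scaling, -0.064 with library totals and -0.061 with a mean of at least 20 counts. Polg2 was -0.045 with library totals and -0.039 with that mean. With DSS + EA mice 2 and 3 left out, mt-Co2 was 0.18, mt-Atp6 0.20, mt-Nd5 0.10 and mt-Nd6 0.26. With a mouse left out, log2 fold changes in DSS against control ran from -0.34 to 0.13 for mt-Nd1, -0.13 to 0.47 for mt-Co1, -0.12 to 0.43 for mt-Co2, -0.54 to 0.033 for mt-Atp6, -0.38 to 0.33 for mt-Nd4, -0.17 to 0.22 for mt-Nd6 and -0.37 to 0.53 for Atp5g2. In DSS + EA against DSS they ran from -0.21 to 0.22 for mt-Nd2, -0.33 to 0.14 for mt-Co2, -1.98 to 0.10 for mt-Atp8, -0.40 to 0.17 for mt-Atp6, -0.55 to 0.019 for mt-Nd5, -0.62 to 0.0087 for mt-Nd6, -0.042 to 0.14 for Polg2, -0.19 to 0.60 for Esrra and -0.13 to 0.47 for Polrmt. The median log2 fold change of all genes in DSS + EA against DSS moved to -0.11 with no filter and to -0.11 without DSS + EA mouse 1, where the nuclear medians were 0.61 and 0.54.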

Other observations

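Across the 80 nuclear members, Spearman's rho of the log2 fold change in DSS against control was 0.0015 with the length of the longest transcript and -0.31 with the mean control level, and for DSS + EA against DSS it was 0.079 and 0.15. These are descriptions across genes of the same libraries, and genes are not independent replicates. In the control group, mouse 3 was the highest for 57 of the 80 nuclear members and mouse 1 the lowest for 52. In the DSS + EA group, mouse 2 was the highest for 61 and mouse 1 the lowest for 56.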
